A study of Lytechinus variegatus with 9 samples.

Results

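Spicule matrix proteins are secreted proteins that become embedded in the growing calcite rods of the sea urchin skeleton, and 5 of the 26814 genes in the count table were examined here as spicule matrix genes: sm30a (LOC121406020), sm29 (LOC121405931), sm37 (LOC121406031), Clect (LOC121406083) and sm30f (LOC121406359). They were selected by gene identifier, and all 5 were abundant enough to be tested in every comparison. In the annotation of the count table, sm30a and sm30f are described as 30 kDa spicule matrix protein alpha-like, Clect as 30 kDa spicule matrix protein-like, sm37 as 34 kDa spicule matrix protein-like and sm29 as collectin-12-like. A C-type lectin domain is annotated for sm30a and Clect and for none of the other 3 genes.

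RNA was taken from whole Lytechinus variegatus embryos of 3 separate matings, each of which supplied 1 library from embryos in the solvent DMSO, 1 from embryos in K02288 at 1 µM and 1 from embryos in axitinib at 75 nM (n = 3 libraries per treatment). Drugs were added between 18 and 20 hours post-fertilization (hpf) and embryos were collected at 2 days post-fertilization (dpf), having been raised at 21 °C. No transgene or mutation is named for any group. K02288 inhibits type I BMP receptors and axitinib inhibits VEGF receptors, so the comparisons, which share the DMSO libraries, ask how far the level of each spicule matrix mRNA depends on BMP or on VEGF signaling while the skeleton of the pluteus larva grows.

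In the sea urchin embryo, the skeleton is made by the primary mesenchyme cells (PMCs), which fuse into a syncytium and secrete biomineral into a shared compartment. The matrix of this biomineral holds many proteins with a lectin-like domain, among them the SM30 family and the SM50 family, to which SM37 is related. VEGF signals from the ectoderm guide PMC migration and support skeletal growth, whereas BMP signals act on the dorsal side of the embryo. The study used sm37 as a stain for the whole PMC syncytium in its in situ hybridizations. It chose this gene because preliminary work had found its expression unaffected by K02288. The study lists sm29, sm30a, sm30f and Clect for their response in these same libraries, so the direction of those genes below is not independent evidence. For sm29 it also reports in situ hybridizations. There K02288 reduced the enriched dorsal PMC signal in every embryo scored, and axitinib had no effect on dorsal expression.

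The libraries held between 9359212 and 11815263 counts. In log2 CPM (counts scaled to library size), libraries with the same mating number deviated together from their treatment means (r between 0.706 and 0.750 over all genes for 9 pairs), and a fit with a term for mating (the paired fit) is therefore given beside the unpaired fit where it changes a call or a count. A gene is called here at an unadjusted edgeR quasi-likelihood p of at most 0.05, the threshold of the study's methods, and adjusted p values are adjusted over all genes tested. The PMC markers used here were 302 genes of the study's list from a published single-cell data set, which is longer, and none of them was at 0 in every library. Their summed FPKM (read fragments scaled by gene length and library size) ran from 9662 to 10786 with DMSO, from 9067 to 9368 with K02288 and from 8360 to 8803 with axitinib. Without the spicule matrix genes on it, the remaining 298 genes summed to between 7827 and 8350, between 7698 and 7757 and between 7189 and 7320. The summed FPKM of muscle genes (10 genes, 550 to 719), of tektins of cilia (4 genes, 535 to 708) and of synaptotagmins of neurons (20 genes, 117 to 143) overlapped between DMSO and each drug. For muscle genes the overlap with K02288 was narrow (660.95 to 719.35, beside 621.36 to 661.87 with DMSO). Synaptotagmins ran from 120 to 126 with K02288 and from 125 to 143 with DMSO. No gene was described as endo16, the marker chosen for the gut, so the gut was not checked.

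The most abundant of the 5 mRNAs was sm30a, one of the SM30 genes. Its FPKM with DMSO was 1300 ± 259 (SD, n = 3), the rank of 33 among all genes, followed by sm37 at 338 ± 22.3, sm29 at 252 ± 55.1, Clect at 221 ± 26.3 and sm30f at 30.04 ± 8.26. FPKM is a level per length, and the 5 gene lengths are alike, from 1546 bases for Clect to 1898 for sm30f. On this scale, sm30a was 3.85 times sm37 and sm37 was 1.34 times sm29, with no overlap between the DMSO libraries of either pair. The levels of sm29 and Clect overlapped with DMSO and with K02288 but not with axitinib, where sm29 was 2.04 times Clect. The order of the 5 genes was the same in all 3 treatments.

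The 5 genes together supplied 0.439%, 0.336% and 0.368% of all counts in the DMSO libraries of matings 1, 2 and 3. With K02288 they supplied 0.282%, 0.275% and 0.231%, and with axitinib 0.263%, 0.235% and 0.188%. Each of these shares has a 95% Clopper-Pearson interval no wider than that of DMSO mating 1 (0.435% to 0.443%), which covers counting error only. All 6 drug-treated libraries were thus below all 3 DMSO libraries.

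**Figure D1:**
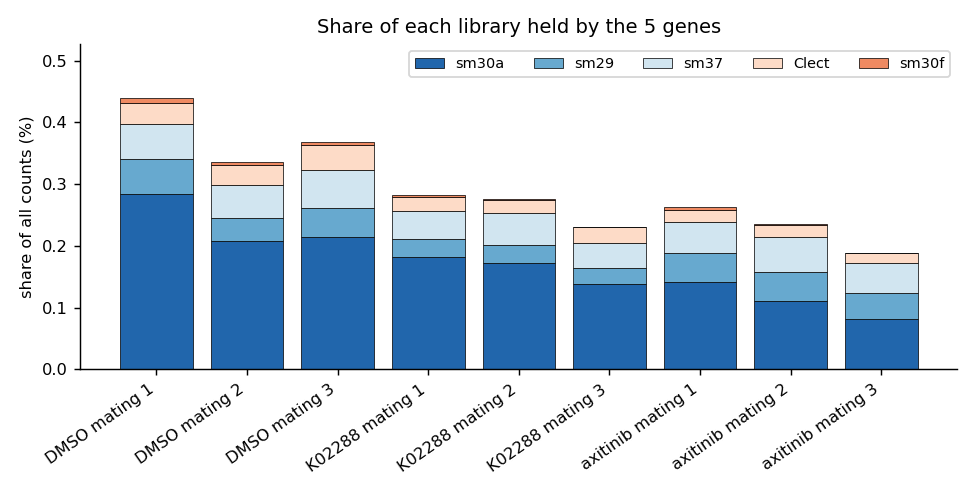
Stacked share of all counts (%, vertical axis from 0) held by each of the 5 spicule matrix genes in each of the 9 libraries. The bars fall from between 0.336% and 0.439% with DMSO to between 0.188% and 0.282% with either drug, and sm30a is the largest segment of every bar.

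On average the share was 0.381% ± 0.0530 (SD, n = 3) for DMSO, 0.263% ± 0.0277 for K02288 and 0.229% ± 0.0377 for axitinib, a log2 ratio to DMSO of -0.54 for K02288 and -0.73 for axitinib. The part of this pool held by sm30a was alike with DMSO and K02288 and lower with axitinib. This gene supplied 61.7% ± 3.25 of the counts of the 5 genes with DMSO and 62.4% ± 2.28 with K02288, but 47.9% ± 5.34 with axitinib. The part held by sm29 was 12.3% ± 1.02 with DMSO, 10.7% ± 0.339 with K02288 and 20.1% ± 2.26 with axitinib, and that held by sm30f was 1.51% ± 0.172, 0.659% ± 0.516 and 0.813% ± 1.06. Of the drop in the mean share, sm30a made up 60.3% with K02288 and 82.0% with axitinib, whereas sm29 made up 16% and 0.962%. When sm30a was left out, the log2 ratio of the share was -0.56 with K02288 but only -0.30 with axitinib.

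K02288 lowered 4 of the 5 mRNAs: sm29, Clect, sm30a and sm30f passed the threshold and sm37 did not. Over all genes, 1.23% of the 16288 tested were called lower by the same rule. The median log2 fold change of the 5 genes was -0.54, beside 0.01 over all genes tested. All 5 genes were lower with K02288 in each of the 3 matings, as were 16% of all genes, and the 3 K02288 values lay below the 3 DMSO values for all 5, as they did for 3.51% of all genes. In whole embryos, fewer PMCs and less RNA per PMC cannot be told apart. All 5 genes were called lower in the paired fit (beside 5.90% of all genes), 4 of them also with an adjusted p under 0.05 (beside 1.05%).

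**Figure D2:**
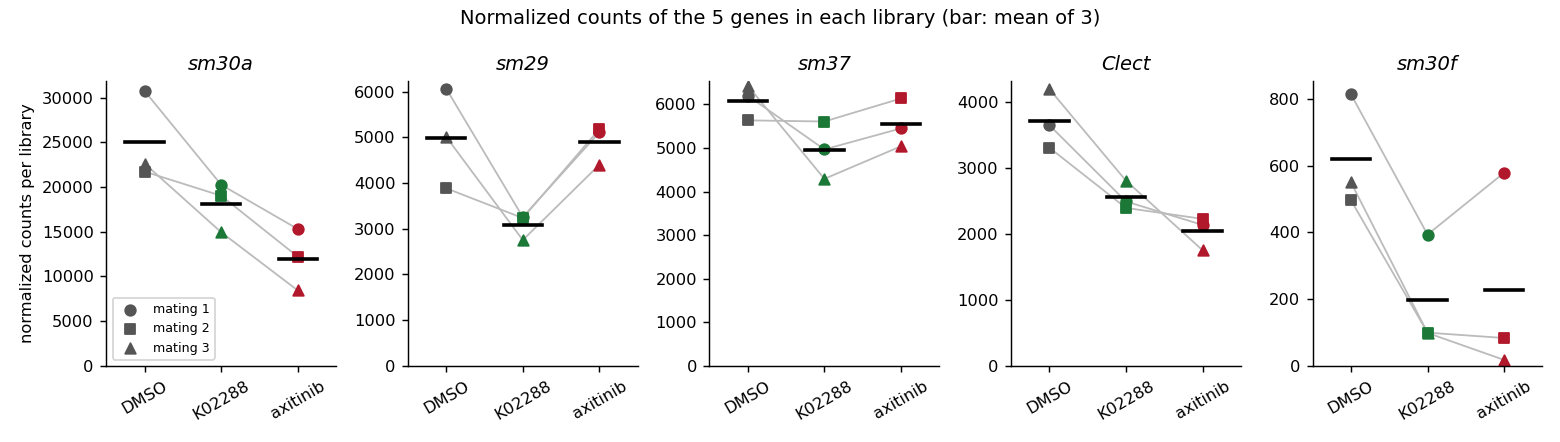
Normalized counts (vertical axis from 0) of each spicule matrix gene in the 9 libraries. Each point is 1 library, its shape gives the mating, gray lines join libraries of the same mating and the black bar is the mean of 3. sm30a steps down from DMSO to K02288 to axitinib in every mating, and sm29 is low with K02288 only. With axitinib, sm30f is at 578 normalized counts in mating 1 (813 with DMSO) but at 17.8 in mating 3.

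sm29 encodes a secreted protein of the spicule matrix. It had 6064, 3884 and 5010 normalized counts in the DMSO libraries of matings 1, 2 and 3, and 3255, 3233 and 2751 with K02288. Normalized counts are counts scaled by the TMM method over the 9 libraries. The K02288 libraries lay close together and below every DMSO library, although mating 2 started lower and kept 83.2% of its DMSO value, against 53.7% in mating 1 and 54.9% in mating 3. The log2 fold change was -0.70 (SE 0.18, 95% interval -1.13 to -0.27, edgeR adjusted p = 1.0). In the paired fit the adjusted p was 0.00267, and over the alternatives it ran up to 1.0. The call was made in all 6 fits without 1 library.

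Clect, a predicted spicule matrix protein with a lectin domain, had 3650, 3309 and 4197 normalized counts with DMSO and 2493, 2395 and 2809 with K02288. Its ratio hardly varied between matings, from 66.9% to 72.4% of the DMSO value. Its log2 fold change was -0.54 (SE 0.14, 95% interval -0.88 to -0.20, edgeR adjusted p = 1.0), and the adjusted p in the paired fit was 0.00221, within a range up to 1.0 over the alternatives. This call, too, was made in all 6 fits without 1 library.

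For sm30a, the DMSO libraries had 30734, 21727 and 22616 normalized counts and the K02288 libraries 20248, 19022 and 14941. All K02288 libraries were lower, and the highest of them came close to the lowest DMSO library. The log2 fold change was -0.47 (SE 0.18, 95% interval -0.90 to -0.05, edgeR adjusted p = 1.0), and within matings 65.9%, 87.5% and 66.1% of the DMSO value remained. Pairing brought the adjusted p to 0.0169. Leaving out DMSO replicate 1 (-0.30) lost the call, as did leaving out K02288 replicate 2 (-0.51) or 3 (-0.36), fitting all 9 libraries together or using limma on log2(FPKM + 1).

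sm30f is the least abundant of the 5 genes, with raw counts between 16 and 748. Its normalized counts were 813, 496 and 550 with DMSO and 393, 99.5 and 98.6 with K02288. Matings 2 and 3 thus kept 20.1% and 17.9% of the DMSO value, while mating 1 kept 48.4%. The log2 fold change of -1.66 (SE 0.55, 95% interval -2.94 to -0.38, edgeR adjusted p = 1.0) was the largest of the 5. It was -1.88 with an adjusted p of 8.04e-05 in the paired fit, in a range up to 1.0 over the alternatives. The call did not hold without K02288 replicate 2 (-1.34), K02288 replicate 3 (-1.34) or DMSO replicate 1 (-1.41) or with all 9 libraries in 1 fit, and it was -2.65 without K02288 replicate 1.

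sm37, the stain for the whole syncytium, had 6200, 5633 and 6429 normalized counts with DMSO and 4966, 5607 and 4291 with K02288. Mating 2 was at 99.5% of its DMSO value, and matings 1 and 3 kept 80.1% and 66.7%. Its log2 fold change was -0.30 (SE 0.14, 95% interval -0.63 to 0.03). In the paired fit it was called (95% interval -0.53 to -0.08) with an adjusted p of 0.157, and it was also called without K02288 replicate 2 (-0.40). The paired call was lost without mating 3 (-0.17).

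Axitinib lowered sm30a and Clect, 2 of the 5 genes, where 3.07% of the 16035 genes tested were called lower. The 3 axitinib values lay below the 3 DMSO values for these 2 genes, as for 5.59% of all genes. Another gene, sm30f, was lower in every mating (as were 18.3% of all genes) but was not called, nor were sm29 and sm37. The median log2 fold change was -0.87, beside 0.01 over all genes. sm30f was also called in the paired fit, which made 3 of 5 (beside 8.87% of all genes), all 3 with an adjusted p under 0.05 (beside 3.44%).

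sm30a had 15299, 12204 and 8431 normalized counts with axitinib, against 30734, 21727 and 22616 with DMSO. Within matings 49.8%, 56.2% and 37.3% remained, and the groups were far apart. On the log2 scale the fold change was -1.06 (SE 0.24, 95% interval -1.61 to -0.51, edgeR adjusted p = 0.316), and the adjusted p in the paired fit was 1.62e-05 in a range up to 0.821. Clect had 2137, 2229 and 1754 normalized counts with axitinib, or 58.5%, 67.4% and 41.8% of DMSO. Its log2 fold change was -0.87 (SE 0.15, 95% interval -1.22 to -0.51, edgeR adjusted p = 0.131, and 0.000232 in the paired fit in a range up to 0.504). Both calls were made in all 6 fits without 1 library, and for both genes mating 3 kept the least.

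sm30f spanned the widest range with axitinib, at 578, 83.5 and 17.8 normalized counts, from 551, 83 and 16 raw counts. These values amount to 71.1%, 16.8% and 3.24% of the DMSO values of the same matings. Mating 1 thus retained most of its sm30f while mating 3 had almost none, and the axitinib and DMSO groups overlapped. The log2 fold change was -1.45 (SE 0.96, 95% interval -3.68 to 0.78). Paired by mating, it was -2.13 (95% interval -3.07 to -1.19, adjusted p = 0.00734, in a range up to 1.0), and without axitinib replicate 1 it was -3.60 and called. It was also called with limma on log2(FPKM + 1) (-2.23). It fell to -0.91 without axitinib replicate 3 and was not called there.

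sm29 had 5108, 5179 and 4399 normalized counts with axitinib, within the DMSO range of 3884 to 6064. The log2 fold change was -0.03 with a 95% interval of -0.44 to 0.39, and -0.01 with an interval of -0.26 to 0.24 in the paired fit. The sign turned with the libraries used, with mating 2 at 133% of its DMSO value and matings 1 and 3 at 84.2% and 87.8%. sm37 had 5449, 6136 and 5039 normalized counts with axitinib, also partly within the DMSO range, with a log2 fold change of -0.14 (95% interval -0.44 to 0.16). In the paired fit without mating 2, sm29 (-0.22) and sm37 (-0.27) were both called lower.

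**Figure D3:**
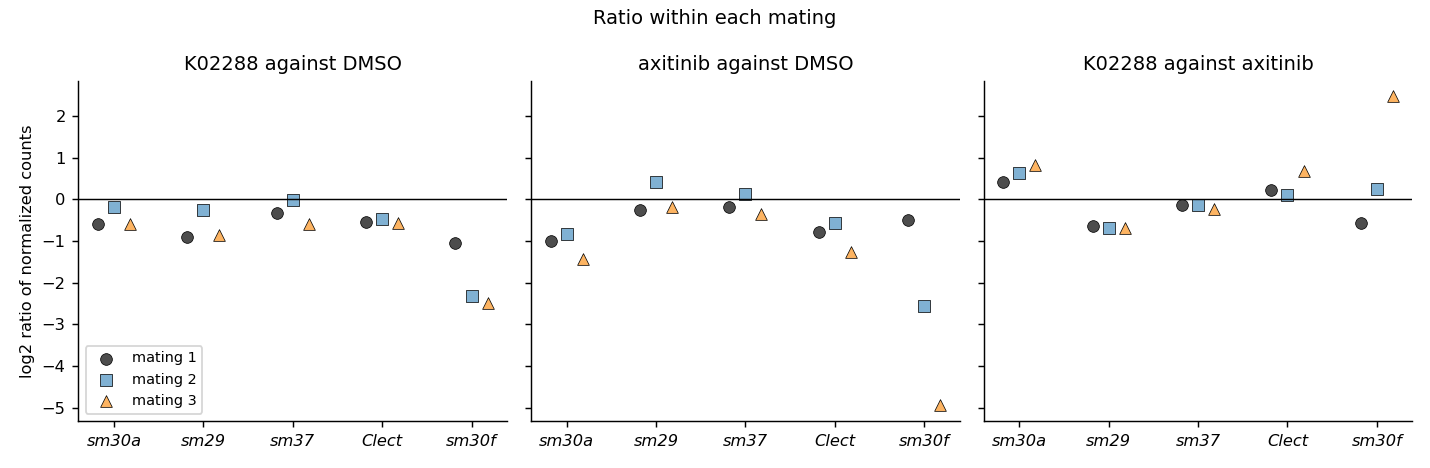
Log2 ratio of normalized counts within each mating (vertical axis) for each spicule matrix gene, for K02288 over DMSO, axitinib over DMSO and K02288 over axitinib; each point is 1 mating. All K02288 to DMSO ratios are below 0, the sm29 ratios of K02288 to axitinib lie together between -0.68 and -0.65, and those of sm30f run from -0.56 to 2.47.

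The direct contrast of the drugs tested whether the genes differed between them. sm29 was lower and sm30a higher with K02288 than with axitinib, 2 calls among the 5 genes, where 1.77% of the 16197 genes tested were called lower and 3.22% higher. For sm29 the K02288 value was 63.7%, 62.4% and 62.5% of the axitinib value in matings 1, 2 and 3, a closer match between matings than in either comparison with DMSO. Its log2 fold change was -0.67 (SE 0.13, 95% interval -0.98 to -0.35, edgeR adjusted p = 0.198, and 1.81e-05 in the paired fit in a range up to 0.707), called in all 6 fits without 1 library. For sm30a the K02288 value was 132%, 156% and 177% of the axitinib value, a log2 fold change of 0.59 (SE 0.23, 95% interval 0.06 to 1.12, edgeR adjusted p = 0.841, and 9.38e-05 in the paired fit in a range up to 1.0). This call was lost without K02288 replicate 1 (0.50), K02288 replicate 2 (0.55), axitinib replicate 2 (0.61) or axitinib replicate 3 (0.39).

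Clect was 117%, 107% and 160% of its axitinib value with K02288, which missed the threshold without the mating (log2 fold change 0.33, 95% interval -0.01 to 0.67) and passed it in the paired fit (adjusted p = 0.0543) and with all 9 libraries in 1 fit. The paired call was lost without mating 3 (0.16). sm37 was lower with K02288 in every mating by a small margin, at between 85.2% and 91.4% of the axitinib value. Its log2 fold change was -0.16 (95% interval -0.50 to 0.18), and it was called in the paired fit (adjusted p = 0.188), but not without mating 1 (-0.18) or 3 (-0.13). For sm30f the interval of the difference, -2.73 to 2.33, held large changes in both directions, and its sign turned between the unpaired (-0.20) and the paired fit (0.30). The paired fit therefore called 4 of the 5 genes, 2 lower (beside 9.19% of all genes) and 2 higher (beside 10.4%), of which 1 in each direction had an adjusted p under 0.05 (beside 3.10% and 5.06%).

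Ratios to sm37 within a library do not depend on how libraries are scaled, and show unequal change between genes rather than no change in sm37. The FPKM of sm30a was 4.64, 3.61 and 3.29 times that of sm37 with DMSO in matings 1, 2 and 3. It was 3.82, 3.17 and 3.26 times sm37 with K02288, and 2.63, 1.86 and 1.57 times with axitinib. For sm29 the ratio was between 0.627 and 0.890 with DMSO, between 0.525 and 0.596 with K02288 and between 0.768 and 0.853 with axitinib. The Clect ratio fell from between 0.630 and 0.700 with DMSO to between 0.373 and 0.421 with axitinib, while with K02288 mating 3 stayed at 0.702 and the other two were at 0.538 and 0.458.

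Across the 9 libraries, after each mating's mean was removed, log2 CPM of Clect correlated with sm30a at r = 0.96 and with sm30f at r = 0.91, and sm30a correlated with sm30f at r = 0.83. sm29 correlated with sm37 at r = 0.85 but with sm30a at r = 0.01. These values describe 9 libraries that share 3 treatments and carry no test. Of 10077 genes compared in this way, the closest to sm30a were LOC121416218, LOC121410506 and LOC121415747, the closest to Clect were LOC121428679, LOC121423895 and LOC121422431, and the closest to sm29 were LOC121418579, LOC121407135 and LOC121407091. Those closest to sm30f were LOC121410229, LOC121419201 and LOC121410368, and those closest to sm37 were LOC121407799, LOC121429735 and LOC121430884. Their r ran from 0.96 to 0.99. With the mating means left in, it ran from 0.27 (LOC121430884) to 0.96 (LOC121415747). LOC121410506 is annotated as galectin-3-binding protein B-like, LOC121423895 as a membrane-associated phospholipase A2 and LOC121418579 as a cytoskeletal actin.

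All 5 genes lie on chromosome 19 of genome version 3.0, which holds 652 of the annotated genes. In the count table, 11 genes carry a spicule matrix protein in their description or protein match and 9 of them are on this chromosome. They do not form 1 block. Clect (1181295 to 1187333, plus strand) stands 6466008 bases from sm29 (7653342 to 7665211, minus strand), sm30f (13321586 to 13326420) and sm30a (13351320 to 13355517) lie 24899 bases apart on the minus strand, and sm37 (22481287 to 22482944, minus strand) lies 15328 bases from sm50. None of the 5 overlaps another gene, and sm37 has a counted length of 1658 bases equal to its span on the chromosome, so its gene model has no intron.

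sm30f and sm30a belong to a run of 5 genes described as SM30-like or matched to an SM30 protein, spread over 70329 bases, and their levels differed greatly. Between the 2 lies LOC121406029, described in the same words, with 10 to 28 raw counts with DMSO, 6 to 60 with K02288 and 1 to 10 with axitinib. LOC121406288, on the other side of sm30a, had between 0 and 7. How reads that match more than 1 SM30 gene were counted is not given in the sources used here, which leaves the split of reads between these copies uncertain. In the axitinib library of mating 3, however, sm30a had 7573 counts beside 16 for sm30f (0.211% of sm30a) and 1 for LOC121406029 (0.0132%), which bounds the reads of sm30a that could have been counted on either gene in that library.

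LOC121406111 lies 2846 bases from sm30f on the plus strand and is annotated as a transmembrane protein-like gene whose best protein match is SM30. It had 56, 21 and 35 raw counts with DMSO, 2, 16 and 18 with K02288 and 111, 45 and 59 with axitinib. It was thus lower with K02288 and higher with axitinib in every mating, whereas sm30f was lower with both. Against DMSO neither change was called (log2 fold change -1.75, 95% interval -3.59 to 0.07, and 0.97, interval -0.25 to 2.20), but the drugs differed from each other (-2.72, adjusted p = 0.411). In the paired fit, the K02288 change (-1.70, adjusted p = 0.183) and the axitinib change (1.00, adjusted p = 0.0384) were both called. The K02288 call was lost in the paired fit without mating 1 (-0.72), whose K02288 library held 2 counts. It was made in the unpaired fit without DMSO replicate 2 (-2.09), and also with DESeq2 (-1.77), with all 9 libraries in 1 fit (-1.75) and with limma on log2(FPKM + 1) (-0.72) or log2(FPKM + 0.1) (-1.65). The axitinib call was made without DMSO replicate 1 (1.46).

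**Figure D4:**
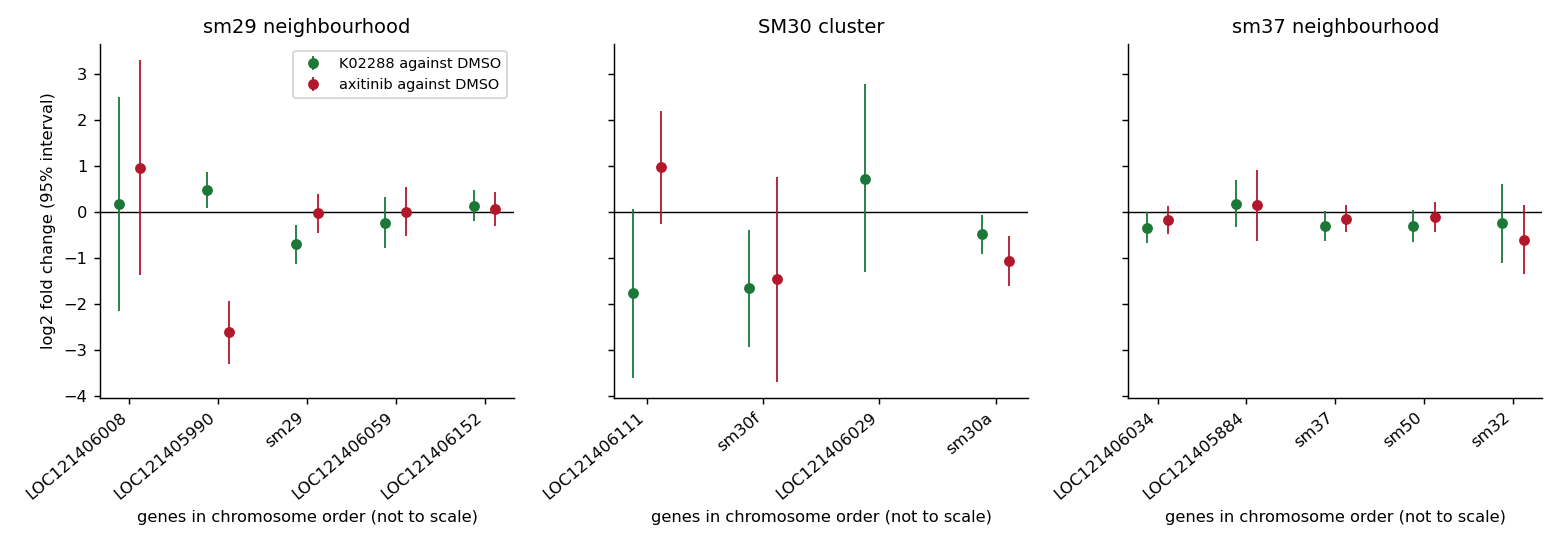
Log2 fold change against DMSO with its 95% interval (vertical axis, fit without a mating term) for genes in chromosome order around sm29, in the SM30 cluster and around sm37; green is K02288 and red is axitinib. LOC121405990 next to sm29 moves in opposite directions with the drugs (0.48 and -2.61), the genes around sm37 lie between -0.60 and 0.19, and LOC121406029 with axitinib and LOC121406288 were too low for a test and are not drawn.

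The nearest gene to sm29, LOC121405990, lies 5076 bases away on the same strand and is annotated as a snaclec-like C-type lectin. It had 546, 524 and 503 raw counts with DMSO, 868, 714 and 749 with K02288 and 120, 68 and 58 with axitinib. The 3 treatments did not overlap, and the gene was highest with K02288, where sm29 was lowest. Axitinib lowered it by a log2 fold change of -2.61 (SE 0.29, edgeR adjusted p = 0.0290) and K02288 raised it by 0.48 (SE 0.16). The K02288 call was lost without DMSO replicate 2 (0.40), DMSO replicate 3 (0.49) or K02288 replicate 1 (0.39), while its adjusted p in the paired fit was 0.0130 in a range up to 1.0. The gene on the other side of sm29, LOC121406059, also with a lectin domain, was not called with either drug (-0.23 and 0.01), and its axitinib value turned sign when 1 library was left out.

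Around sm37, the SM50-type genes sm50 and LOC121406034 gave values near those of sm37 itself, whereas sm32, 15573 bases away, had -0.60 with axitinib. LOC121405884, a snaclec-like gene between LOC121406034 and sm37, had 0.19 with K02288 and 0.15 with axitinib and was not called in either fit. LOC121406034, annotated as the 27 kDa primary mesenchyme-specific spicule protein, had an FPKM of 361 ± 41.3 (SD, n = 3) with DMSO. This mean was slightly above that of sm37, but in mating 3 LOC121406034 was the lower of them (343 beside 356). LOC121406034 had log2 fold changes of -0.33 with K02288 and -0.16 with axitinib. sm50 (LOC121405815), a founding member of the spicule matrix proteins, had -0.30 with K02288 and -0.10 with axitinib. Neither gene was called, and sm37 was at -0.30 and -0.14. In the paired fit, sm50 and LOC121406034 were called lower with K02288 (adjusted p = 0.175 and 0.119) and neither with axitinib. Both K02288 calls were also made without K02288 replicate 2 (-0.39 and -0.44). The paired calls were lost without mating 1 (-0.21 and -0.18), and that of sm50 also without mating 3 (-0.22). The gene model of sm50 shares 6434 bases with that of sm32 on the same strand, so the split of reads between these 2 genes is uncertain.

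Among the 4 further spicule matrix and lectin genes that the study's PMC list names (sm50, sm32, C-lectin/PMC1 and clec19a), K02288 lowered 1 and axitinib 2, and none rose. Over all genes tested, 1.23% and 3.07% were called lower by this rule. The paired fit called 2 and 3 lower (beside 5.90% and 8.87% of all genes). clec19a fell with both drugs, by 0.79 with K02288 and by 0.45 with axitinib, both on the log2 scale. The edgeR adjusted p was 0.9999 and 0.897 for clec19a, and 0.000554 and 0.0115 in the paired fit. Its axitinib call was lost without DMSO replicate 1 (-0.36), DMSO replicate 3 (-0.42), axitinib replicate 2 (-0.39) or axitinib replicate 3 (-0.42). C-lectin/PMC1 (LOC121406053) had -0.26 with K02288 and fell by 0.98 with axitinib (edgeR adjusted p = 0.329, and 0.00460 in the paired fit). The count table describes this gene as translation initiation factor IF-2-like and annotates no lectin domain for it. sm32 had -0.24 and -0.60 and was not called with axitinib in the unpaired fit, but was called in the paired fit (adjusted p = 0.0321) and without DMSO replicate 1 (-0.81). Of the 9 other biomineralization genes named on that list, K02288 lowered 4 and raised 1 (beside 1.23% and 1.22% of all genes), and axitinib lowered 7 and raised none (beside 3.07% lower). The paired fit called 6 lower and 1 higher with K02288 (beside 5.90% and 7.26% of all genes) and 8 lower with axitinib (beside 8.87%). The gene that rose was msp130, a PMC surface glycoprotein, which stood at 0.44 on the log2 scale with K02288 and at -1.24 with axitinib. With K02288 its edgeR adjusted p was 0.9999, and 0.00828 in the paired fit. The rise did not pass the threshold without DMSO replicate 1 (0.39), DMSO replicate 3 (0.37), K02288 replicate 1 (0.48) or K02288 replicate 2 (0.31).

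**Figure D5:**
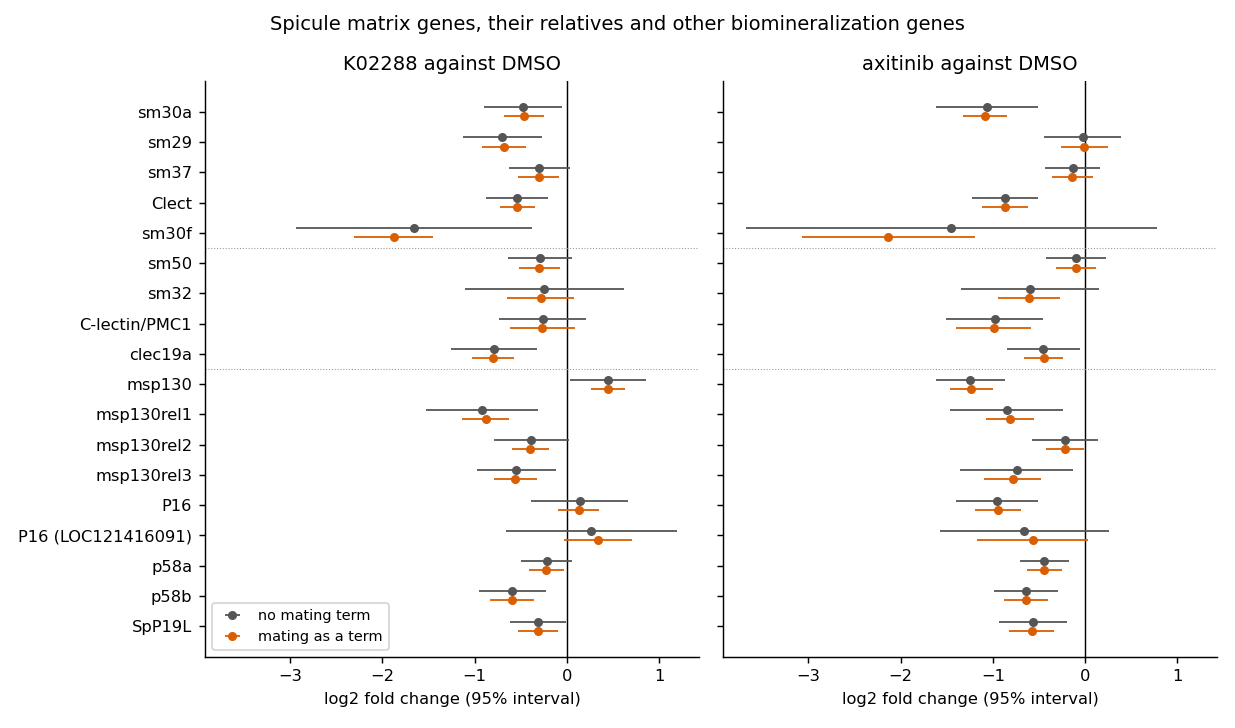
Log2 fold change against DMSO with its 95% interval (horizontal axis) for the 5 spicule matrix genes (top), 4 relatives (middle) and 9 other biomineralization genes (bottom), without a mating term (gray) and in the paired fit (orange). The intervals of sm29 and sm37 with axitinib include 0 in both fits, that of sm30f with axitinib includes 0 only without the mating term, and msp130 lies above 0 with K02288 and below 0 with axitinib.

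Of the PMC marker genes, 19 of 301 tested were called lower and 4 higher with K02288 (beside 1.23% and 1.22% of all genes). The median was -0.10 on the log2 scale. With axitinib 43 of 300 were called lower and 3 higher (beside 3.07% and 1.77% of all genes), with a median of -0.13. In the paired fit these counts were 66 lower and 22 higher with K02288 (beside 5.90% and 7.26% of all genes) and 86 lower and 16 higher with axitinib (beside 8.87% and 8.96%). The transcription factor gene alx1, a regulator of PMC identity, was not called with K02288 (0.14) and rose with axitinib (0.58). That call was lost without any 1 of the DMSO libraries (0.52, 0.60 and 0.62 for matings 1, 2 and 3), axitinib replicate 2 (0.55) or axitinib replicate 3 (0.40). The part that PMC number or PMC RNA plays in the changes of the spicule matrix genes was not tested.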

How the data were processed

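Poly-A RNA of whole embryos was sequenced, 1 library per mating and treatment. Per the paper's methods, the authors mapped reads with HISAT2 to L. variegatus genome version 3.0. The deposited counts are whole-number read counts per gene, without normalization. The authors also deposited FPKM values, which equal the count divided by gene length and a scaled library size for 100% of values above 0 (within 0.1%). The counting tool and its handling of reads with several matches are not given in the sources used here. All 26814 genes matched the RefSeq table.

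Counts were tested with edgeR 4.0.16 in R 4.3.3 (filterByExpr by treatment, TMM, quasi-likelihood test) on the 6 libraries of each pair of treatments without a mating term, with an unadjusted p of at most 0.05 as the call (the paper's methods compare treatments with DESeq2 at this threshold and name no mating term) and Benjamini-Hochberg adjustment over all genes tested. The replicate numbers pair the libraries: the methods name separate matings, and after treatment means were removed same-numbered libraries correlated at r = 0.706 to 0.750 (9 pairs). Other pairs were at -0.420 to -0.327 (18 pairs). Their negative sign follows from removing the treatment means and adds nothing to the case for pairing. Because same-numbered libraries correlated, a paired fit (replicate block), which adds a term for mating, was made for each comparison.

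Alternatives were RLE normalization, no filter, at least 10 counts in every library, all 9 libraries in 1 fit, DESeq2 1.42.0, limma 3.58.1 on log2(FPKM + 1) and log2(FPKM + 0.1), the replicate block and leaving out each library; the replicate block without 1 mating was added after seeing the data. The fits were also run on simulated counts with the same dispersion for every gene. That run does not cover genes as variable as sm30f. The genes and lists were chosen with earlier results of these data known. Genes named are the 5 genes, the relatives and biomineralization genes of the study's PMC list, genes with a spicule matrix description, the 2 nearest genes on each side and the 3 most correlated genes of each (mean count of at least 100), plus alx1. Promoter and protein sequences were not analysed here.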

Additional observations from a re-analysis of the deposited data

How the results depend on the processing

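The number of spicule matrix genes called was 4 with K02288 and 2 with axitinib against DMSO and 2 between the drugs. Over all genes, 200 of 16288 were called lower with K02288 and 493 of 16035 with axitinib. Between the drugs 808 of 16197 were called in either direction. With K02288 the number was 2 with all 9 libraries in 1 fit (beside 219 of 16866 genes called lower). It was between 2 and 4 when 1 library was left out (beside 127 to 193 lower, of 16790 to 16909). With axitinib it was between 2 and 3 without 1 library (beside 365 to 476 lower, of 16496 to 16618). Between the drugs it was then between 1 and 2 (beside 641 to 863 in either direction, of 16720 to 16852). With the replicate block the counts were 5, 3 and 4 (beside 961 of 16288 lower, 1422 of 16035 lower and 3170 of 16197 in either direction). With the block and without 1 mating they were between 4 and 5, between 3 and 5 and between 2 and 4. Those fits leave few residual degrees of freedom. Over all genes they called 836 to 1015 of 16466 to 16658 lower with K02288 and 1037 to 1404 of 16255 to 16430 with axitinib. Between the drugs they called 2477 to 3026 of 16466 to 16550 in either direction. The log2 ratio of the share moved to -0.30 with axitinib when sm30a was left out, since that gene held most of the drop, and lay between -0.85 and -0.61 without 1 library (K02288: between -0.62 and -0.42).

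Values whose sign turned were those of sm29 with axitinib, between -0.18 and 0.13 without 1 library and between -0.22 and 0.11 with the block and without 1 mating (0.083 without mating 3), and those of sm30f between the drugs, which were -0.20 without the block, 0.30 with it, 0.43 and 0.67 with limma on log2(FPKM + 1) and log2(FPKM + 0.1), between -1.20 and 1.95 without 1 library and 1.14 and 0.26 with the block and without mating 1 or 2. sm32 between the drugs was -0.11 without K02288 replicate 2, in a range up to 0.55 without 1 library. LOC121406059 with axitinib was between -0.19 and 0.19 without 1 library and -0.087 with the block and without mating 1, and alx1 with K02288 was between -0.095 and 0.27 without 1 library and -0.063 with the block and without mating 3. The cause was not tested. No other direction turned in the alternatives run for these and the other genes of 15 recomputed; the minimum of 10 counts in every library left out LOC121406111 in both comparisons with K02288. At 16 counts, sm30f with axitinib in mating 3 is also limited by depth.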
